A study of Mus musculus with 24 samples.

Results

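Inguinal white adipose tissue (iWAT, the subcutaneous fat pad of the groin) of Mrs2 knockout (KO) mice was compared with that of wild-type (WT) mice, all fed a Western diet (WD) for 52 weeks. The comparison rests on 6 RNA-seq libraries, 3 of KO and 3 of WT mice, and on every gene with a mean of at least 0.5 FPKM (fragments scaled to gene length and library depth) over all 12 iWAT libraries of the study. That rule kept 14685 of the 54532 genes in the deposited table. The whole series holds 24 libraries, of liver and iWAT, in 8 groups of 3. Mice entered the study at 13 weeks of age and received chow or WD, and the 3 libraries of a group are 3 mice by the labels. The other 6 iWAT libraries, 3 of KO and 3 of WT mice fed chow for the same time, entered the same model and are quoted for reference. Lymph nodes were cut out of the pad, the whole pad was crushed frozen, and 100 mg of the powder was used for poly(A)-selected RNA-seq. The sources used here give no strain, sex or design of the knockout allele, nor whether it is absent from every tissue.

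Mrs2 is the channel through which magnesium ions enter the mitochondrial matrix, where magnesium is a cofactor of nucleotide-handling and dehydrogenase enzymes. White adipocytes store triglyceride in 1 large droplet, whereas beige adipocytes, which appear in the inguinal pad on cold or adrenergic stimulation, hold many mitochondria and express Ucp1, the uncoupling protein that lets the respiratory chain run as a source of heat. On a long high-calorie diet the pad usually expands, and its macrophages, matrix and leptin output usually increase.

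The libraries held between 15358324 and 20354594 reads assigned to genes. They did not hold adipose tissue alone. On a mean log2(FPKM + 1) scale over 19 skeletal muscle markers, the WT WD libraries 1, 2 and 3 stood at 6.70, 3.47 and 2.75 and the KO WD libraries at 5.35, 1.18 and 1.40, so that library 1 of each genotype was the richest in muscle RNA. A mean over 24 adipocyte identity genes was slightly higher in every KO library than in any WT library, at 7.63, 7.76 and 7.68 in WT and 7.97, 7.83 and 8.07 in KO. Over 5 red blood cell genes, all 3 WT libraries, at 9.32, 8.19 and 7.37, stood above all 3 KO libraries, at 5.94, 6.05 and 7.19. Lymphocyte markers were highest in KO library 2, at 3.76, against 1.52 to 2.67 in the other 5. In such bulk tissue, fewer cells of a type and less RNA per cell cannot be told apart.

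Mrs2 itself (ENSMUSG00000021339, chr13:24987483-25020379 of mm10, minus strand) was measured at 5.01, 2.74 and 4.72 FPKM in WT and 1.95, 1.68 and 1.60 FPKM in KO. All 3 KO libraries lay below all 3 WT libraries, and transcript was still counted in each. On the log2(FPKM + 1) scale used for all fold changes here, the difference was -0.88 ± 0.16 (log2 fold change, KO over WT, ± its standard error from limma), with adjusted p = 0.0234 after Benjamini-Hochberg correction over the 14685 genes. Without WT library 1 or 3, or without KO library 1 or 2, the adjusted p passed 0.05, reaching 0.105. On chow the means were 4.34 ± 0.415 FPKM (SD, n = 3) in WT and 2.02 ± 0.256 in KO. Of 16 genes of magnesium transport, Mrs2 among them, 12 lay below 0 and 6 had an unadjusted p under 0.05. In 6 every KO library lay below every WT library and in 2 above, against 12.3% and 12.7% of all tested genes. Mrs2 was the 1 called. The other 15 had log2 fold changes between -0.36 for Cnnm3 and 0.39 for Tmem94, and the set includes Trpm7, the cell-surface magnesium channel-kinase (7.19, 7.23 and 8.01 FPKM in WT and 6.92, 6.03 and 5.60 FPKM in KO; log2 fold change -0.24 ± 0.10, adjusted p = 0.232). These 2 groups of Trpm7 values did not overlap, as for 25.0% of all tested genes, and their difference missed the threshold.

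Across all tested genes, 624 (4.25%) were called at an adjusted p under 0.05, 470 (3.20%) higher and 154 (1.05%) lower in KO. The median log2 fold change of all genes was -0.02, and 45.7% of them lay above 0. Most calls were thus higher in KO, while all genes together leaned slightly lower. By at least 1 on the log2 scale, 180 called genes were higher and 45 lower. All 624 had 3 KO libraries on one side of the 3 WT libraries. How many genes were called rested on single libraries. Without KO library 1, KO library 2 or WT library 3 the counts were 17, 16 and 26, without WT library 1 or 2 they were 253 and 215, and without KO library 3 the count was 871. Without the 2 libraries richest in muscle RNA, WT 1 and KO 1, 4 genes were called. In each of these fits all 624 genes kept an unadjusted p under 0.05. Their direction could not change, since their KO and WT libraries did not overlap. Called in every fit that left out 1 library were 13 genes, among them Elovl6, Acaca, Mpc2 and Mycbp2.

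**Figure D1:**
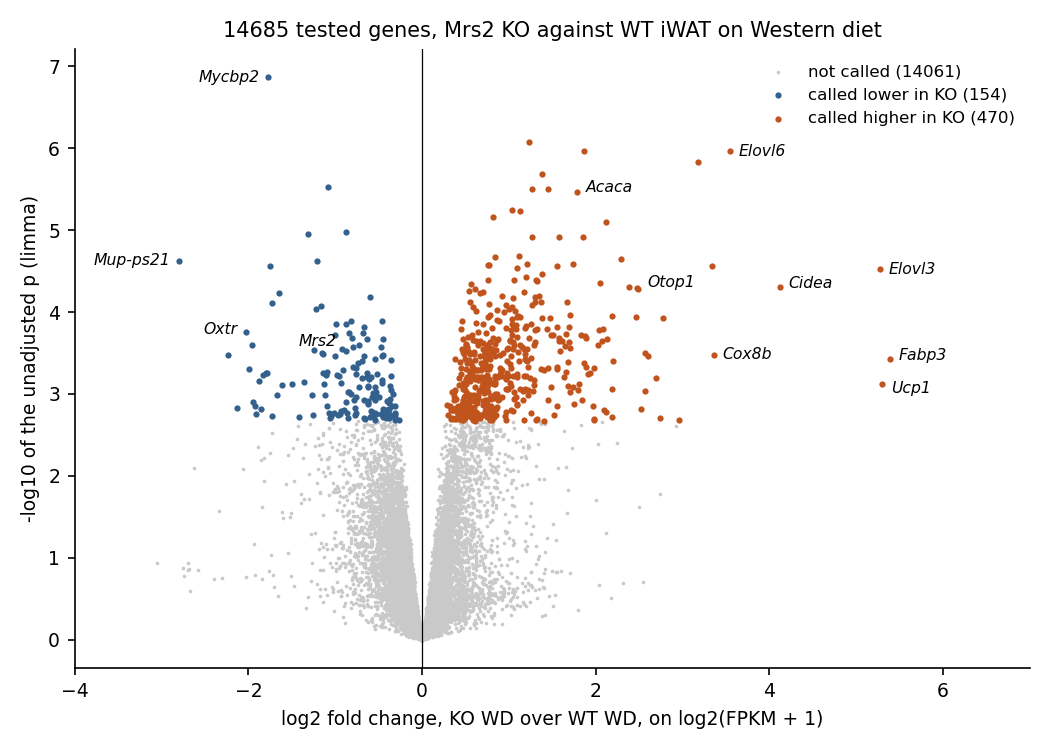
Log2 fold change of KO WD over WT WD iWAT (x axis, on log2(FPKM + 1)) against -log10 of the unadjusted limma p (y axis) for the 14685 tested genes, with the 470 genes called higher in orange, the 154 called lower in blue and the others in grey. Thermogenic and lipogenic genes (Ucp1, Fabp3, Elovl3, Cidea, Elovl6) lie farthest to the right, and Mycbp2 has the smallest p.

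**Figure D2:**
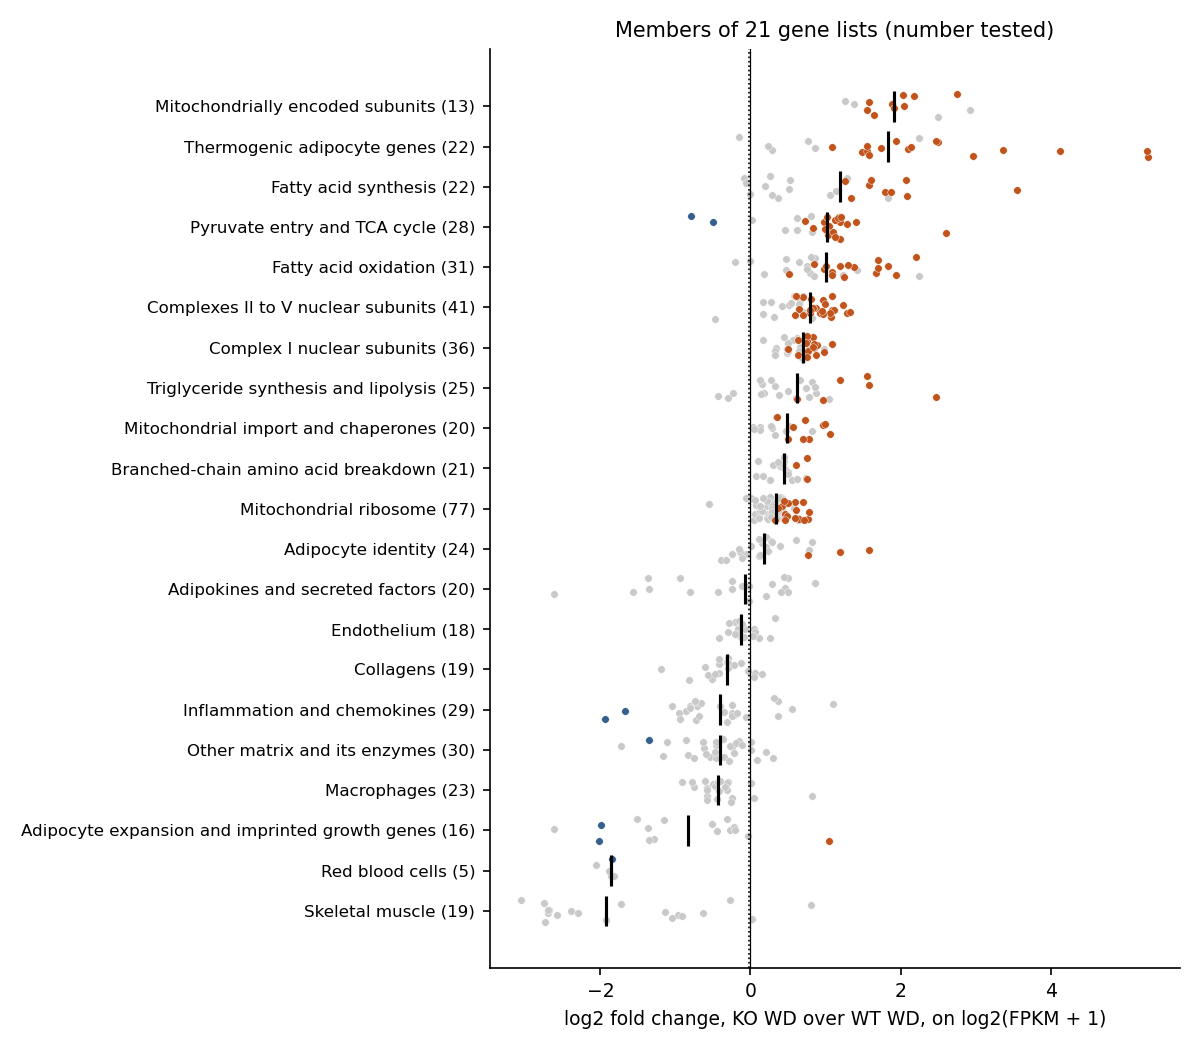
Log2 fold change of KO WD over WT WD iWAT (x axis) for each tested member of 21 gene lists (rows), with called members in orange (higher) or blue (lower), others in grey and a black bar at each list's median. The dotted line is the median of all tested genes, -0.02, and the medians run from 1.91 for the mitochondrially encoded subunits down to -1.93 for skeletal muscle markers.

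Many of the called genes belonged to oxidative phosphorylation, the chain of complexes I to IV that passes electrons to oxygen and the ATP synthase, complex V, that uses the resulting proton gradient. Their subunits are encoded in the nucleus, apart from 13 in the mitochondrial genome. The 250 bases before the transcript start (RefSeq, GRCm38.p6) are printed for some called subunits whose window holds a match to a pattern given below. They are Sdha and Sdhd, subunits of complex II, Cox6a1 of complex IV and Uqcrh of complex III. Most windows of called subunits hold no such match. For contrast, the windows of Ucp1 and Fabp3, among the genes that rose most, are printed too. Each is read 5′ to 3′ on the gene's own strand. Capitals mark matches, on either strand, to the nuclear respiratory factor 1 (NRF1) pattern, which is GCGC, any base, T and GCGC again (on the other strand GCGC, A, any base and GCGC), or, in Uqcrh, to the ETS-family pattern CCGGAAGTG, whose other-strand reading is CACTTCCGG.
Sdha, chr13:74350241-74350490, minus strand: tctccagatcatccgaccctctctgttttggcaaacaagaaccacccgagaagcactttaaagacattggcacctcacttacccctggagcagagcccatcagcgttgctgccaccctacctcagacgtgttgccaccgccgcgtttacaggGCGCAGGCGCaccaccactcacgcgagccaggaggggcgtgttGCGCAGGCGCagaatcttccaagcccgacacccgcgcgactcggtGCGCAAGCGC
Cox6a1, chr5:115348959-115349208, minus strand: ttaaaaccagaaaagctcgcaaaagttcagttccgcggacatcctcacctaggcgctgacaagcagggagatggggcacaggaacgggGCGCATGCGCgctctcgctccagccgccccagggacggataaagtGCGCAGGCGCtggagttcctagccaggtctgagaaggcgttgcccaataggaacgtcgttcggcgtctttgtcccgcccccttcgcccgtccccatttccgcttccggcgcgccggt
Sdhd, chr9:50603850-50604099, minus strand: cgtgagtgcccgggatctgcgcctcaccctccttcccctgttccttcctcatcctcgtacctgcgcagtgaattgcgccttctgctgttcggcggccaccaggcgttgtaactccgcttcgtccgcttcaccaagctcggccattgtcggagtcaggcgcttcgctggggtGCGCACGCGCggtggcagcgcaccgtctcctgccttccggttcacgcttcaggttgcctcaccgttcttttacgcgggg
Uqcrh, chr4:116075071-116075320, minus strand: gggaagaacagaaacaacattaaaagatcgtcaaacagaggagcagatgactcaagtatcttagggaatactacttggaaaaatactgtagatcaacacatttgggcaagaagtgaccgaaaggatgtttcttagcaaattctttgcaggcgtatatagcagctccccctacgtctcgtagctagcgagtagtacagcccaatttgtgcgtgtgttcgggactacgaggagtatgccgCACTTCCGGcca
Ucp1, chr8:83290098-83290347, plus strand: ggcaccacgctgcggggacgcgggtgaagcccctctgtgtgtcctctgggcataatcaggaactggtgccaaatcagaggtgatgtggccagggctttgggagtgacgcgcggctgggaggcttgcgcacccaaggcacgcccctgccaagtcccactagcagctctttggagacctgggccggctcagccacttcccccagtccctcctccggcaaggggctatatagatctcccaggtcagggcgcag
Fabp3, chr4:130308488-130308737, plus strand: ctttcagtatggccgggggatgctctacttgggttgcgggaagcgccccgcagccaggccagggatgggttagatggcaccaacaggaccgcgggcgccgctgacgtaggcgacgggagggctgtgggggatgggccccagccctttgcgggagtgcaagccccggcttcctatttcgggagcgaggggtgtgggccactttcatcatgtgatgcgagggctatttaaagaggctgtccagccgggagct
The NRF1 pattern was found in 14 of 69 promoters of nuclear subunits of the 5 complexes (20.3%), against 7.68% of 12755 promoters of tested genes and 3.74% of all 32851 promoters in the RefSeq set. Among the subunits it was in 17.1% of 35 promoters of called genes and 23.5% of 34 promoters of genes not called. Over all genes called higher it was in 9.02% of 410 promoters. Sdha holds 3 such matches, starting 98, 55 and 10 bases before the transcript start, and the Ucp1 and Fabp3 windows hold none. Another pattern, TNAAGGTCA, read by the estrogen-related receptors, was in 0.690% of tested promoters and in 0.244% of those called higher. Among the subunits it was in 2 of 69 promoters (2.90%), both of genes not called. The ETS-family pattern was in 1 of the 69 subunit promoters (1.45%), that of Uqcrh. It was in 2.86% of tested promoters and in 3.17% of those called higher. These are matches of letters in a 250-base window and no measure of binding.

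Of 36 nuclear subunits of complex I, all 36 had a log2 fold change above 0, with a median of 0.70, and 18 rose. The sum of their levels was 1638, 1471 and 1199.7 FPKM in the WT libraries and 2539.8, 2499.7 and 1883 in the KO libraries, without overlap. Ndufa10, an accessory subunit of the membrane arm, was at 32.98, 33.1 and 25.2 FPKM in WT and 77.7, 75.5 and 47.9 FPKM in KO (log2 fold change 1.09 ± 0.19, adjusted p = 0.0226). Ndufs8, which carries iron-sulfur clusters towards the ubiquinone site, was at 46.5, 42.9 and 35.1 FPKM in WT and 96.3, 101 and 57.7 FPKM in KO (log2 fold change 0.98 ± 0.20, adjusted p = 0.0288). KO library 3 was the lowest of the KO libraries for both genes and still above every WT library. The mean of Ndufv1, which binds NADH, went from 51.1 to 95.7 FPKM (adjusted p = 0.0359) and that of Ndufs1, the largest core subunit, from 13.5 to 25.2 (adjusted p = 0.0311).

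Complexes II to V behaved alike in direction. Of 41 nuclear subunits, including cytochrome c, 25 rose and none fell, 40 lay above 0, and the median was 0.79. Cycs, the mobile electron carrier cytochrome c, was at 30.8, 28.3 and 20.6 FPKM in WT and 83.1, 81.2 and 44.9 FPKM in KO (log2 fold change 1.33 ± 0.23, adjusted p = 0.0217). Uqcrfs1, the Rieske iron-sulfur protein of complex III, was at 108, 107 and 78.7 FPKM in WT and 288, 295 and 159 FPKM in KO (log2 fold change 1.29 ± 0.23, adjusted p = 0.0230). Both sets of KO values lay wholly above the WT values. All 4 subunits of complex II, which is also an enzyme of the TCA cycle, rose, and among them Sdha (promoter above) went from a mean of 102 to 204 FPKM (log2 fold change 0.97 ± 0.20, adjusted p = 0.0292) and Sdhb from 47.3 to 106 (log2 fold change 1.09 ± 0.25, adjusted p = 0.0412). Cox5a and Cox4i1 of complex IV had means that went from 23.9 to 51.7 (adjusted p = 0.0217) and from 204 to 368 FPKM (adjusted p = 0.0362). The catalytic ATP synthase subunit Atp5b went from 278 to 546 FPKM (log2 fold change 0.96 ± 0.20, adjusted p = 0.0288). The exception in direction was Atp5g1, 1 of 3 genes for the c-ring subunit, at 7.36, 5.48 and 2.05 FPKM in WT and 3.24, 1.83 and 4.20 FPKM in KO, whose groups overlapped (log2 fold change -0.47 ± 0.33, adjusted p = 0.499). Of the 18 and 25 calls in these lists, none held without KO library 1, KO library 2 or WT library 3, 8 and 8 held without WT library 1, 2 and 4 without WT library 2, and all held without KO library 3.

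The 13 subunits encoded in the mitochondrial genome had the largest median of any list, 1.91, and 9 rose. Their summed level was 19204, 18378 and 13746 FPKM in WT and 72364, 62708 and 33620.0 in KO, with KO library 3 between the WT libraries and the other KO libraries. mt-Co1, the catalytic subunit of complex IV, was at 6000.1, 5843 and 4992 FPKM in WT and 22699, 19849 and 9943 FPKM in KO (log2 fold change 1.56 ± 0.31, adjusted p = 0.0272). mt-Nd1 of complex I was at 3019, 2959.5 and 2036 FPKM in WT and 13532, 11732 and 5802 FPKM in KO (log2 fold change 1.89 ± 0.34, adjusted p = 0.0226). mt-Cytb, the cytochrome b of complex III, was at 4049.6, 3561 and 2551 FPKM in WT and 13748, 11831 and 6909.7 FPKM in KO (log2 fold change 1.64 ± 0.30, adjusted p = 0.0232). In all 3 genes KO library 1 was the highest and KO library 3 the lowest of its group, and every KO value lay above every WT value. mt-Nd4l, mt-Nd5, mt-Nd6 and mt-Atp8 were not called, with log2 fold changes of 2.93, 1.37, 1.25 and 2.50. mt-Co2, mt-Co3 and mt-Atp6 had WT means of 19.4 to 29.8 FPKM, far under the level of mt-Co1, and the table also lists nuclear pseudogene copies of these genes on chromosome 1, so their levels are uncertain. mt-Atp6 and mt-Atp8 overlap on the same strand, and their reads may have been divided between them.

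As a share of all assigned reads, the mitochondrial genome gave 3.42%, 3.29% and 2.49% in the WT libraries and 11.6%, 10.3% and 5.27% in the KO libraries. The means were 3.07 ± 0.503% and 9.07 ± 3.35% (SD, n = 3 each), a difference of 6.002 percentage points. The groups did not overlap, and the exact two-sided permutation p was 0.10, the smallest that 3 against 3 can give. Leaving out any 1 library kept the difference between 4.74 and 7.90 points. FPKM is relative to the library's total, so the mitochondrial share enters the value of every other gene. With FPKM rescaled over nuclear reads alone, 415 genes were called higher and 267 lower, in place of 470 and 154.

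The machinery that makes and folds mitochondrial proteins moved in the same direction by less. Of 77 proteins of the mitochondrial ribosome, 17 rose, none fell and 75 lay above 0, with a median of 0.34. Mrps27 was at 4.62, 6.44 and 5.10 FPKM in WT and 12.2, 10.1 and 7.88 FPKM in KO (log2 fold change 0.78 ± 0.15, adjusted p = 0.0246). Mrpl12 was at 21.2, 24.6 and 17.4 FPKM in WT and 39.5, 38.7 and 30.9 FPKM in KO (log2 fold change 0.76 ± 0.16, adjusted p = 0.0298). All KO values of both lay above all WT values. Of 20 import and chaperone genes 9 rose, with a median of 0.48. Lonp1, the main matrix protease, went from a mean of 22.7 to 50.1 FPKM (log2 fold change 1.06 ± 0.23, adjusted p = 0.0347) and Hspa9, the matrix HSP70 that pulls proteins in, from 88.5 to 181 (log2 fold change 0.96 ± 0.24, adjusted p = 0.0497). Of 17 regulators of mitochondrial biogenesis 4 rose. Ppargc1b, the coactivator PGC-1 beta, was at 1.63, 2.16 and 1.14 FPKM in WT and 7.38, 5.16 and 3.68 FPKM in KO (log2 fold change 1.26 ± 0.21, adjusted p = 0.0215). Esrra, an estrogen-related receptor, went from a mean of 18.5 to 30.2 FPKM (log2 fold change 0.67 ± 0.16, adjusted p = 0.0488). Ppargc1a, the better known PGC-1 alpha, was at 1.79, 1.70 and 0.716 FPKM in WT and 4.03, 2.58 and 2.51 FPKM in KO and missed the threshold (log2 fold change 0.77 ± 0.21, adjusted p = 0.0793), as did Tfam, which packages mitochondrial DNA (log2 fold change 0.26 ± 0.10, adjusted p = 0.209). Of 17 genes of fusion, fission and mitophagy, Phb2, a prohibitin of the inner membrane, rose (log2 fold change 0.51 ± 0.09, adjusted p = 0.0230).

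The TCA cycle and the entry of pyruvate into it had 20 of 28 genes higher and 2 lower, or 78.6% called, and a median of 1.03. Mpc2, a subunit of the carrier that brings pyruvate into the matrix, was at 15.2, 15.2 and 12.5 FPKM in WT and 32.1, 33.8 and 25.6 FPKM in KO (log2 fold change 1.04 ± 0.12, adjusted p = 0.00720), and it was called in every fit without 1 library. Dlat, the acetyltransferase of the pyruvate dehydrogenase complex, was at 23.1, 27.9 and 23.2 FPKM in WT and 61.4, 66.96 and 46.8 FPKM in KO (log2 fold change 1.19 ± 0.17, adjusted p = 0.0156). Citrate synthase, Cs, was at 70.8, 75.3 and 53.2 FPKM in WT and 176, 175 and 113 FPKM in KO (log2 fold change 1.19 ± 0.20, adjusted p = 0.0217). Every KO value of these 3 genes lay above every WT value, and the means differed 2.13-fold, 2.36-fold and 2.33-fold. All 3 subunits of NAD-dependent isocitrate dehydrogenase rose, Idh3a by 1.10, Idh3b by 1.29 and Idh3g by 1.13 (adjusted p = 0.0208, 0.0296 and 0.0208).

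Pdk4, the kinase that switches pyruvate dehydrogenase off when fatty acids are burned, rose most in this list. It was at 19.2, 19.7 and 30.8 FPKM in WT and 268, 109.6 and 100.0 FPKM in KO (log2 fold change 2.61 ± 0.49, adjusted p = 0.0235), with KO library 1 the highest and all KO values at least 3 times the highest WT value. Pdk3, another of these kinases, fell, from 3.79, 3.65 and 4.96 FPKM in WT to 1.48, 2.36 and 2.03 in KO (log2 fold change -0.80 ± 0.15, adjusted p = 0.0232), and so did Pdp1, a phosphatase that acts against the kinases, from 3.71, 3.53 and 3.68 FPKM in WT to 2.14, 2.15 and 2.61 in KO (log2 fold change -0.49 ± 0.11, adjusted p = 0.0375). Of the 22 calls of this list, 8 and 9 held without WT library 1 or 2, 1 without WT library 3, 1 each without KO library 1 or 2, and 21 without KO library 3.

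Fatty acid oxidation, the chain that cuts fatty acids into acetyl-CoA, had 16 of 31 genes higher, none lower, 29 above 0 and a median of 1.01. Acadvl, which starts the cutting of very long chains in the matrix, was at 39.7, 47.3 and 30.4 FPKM in WT and 186, 193 and 74.9 FPKM in KO (log2 fold change 1.83 ± 0.32, adjusted p = 0.0226). Hadha and Hadhb are the subunits of the trifunctional protein that completes it. Hadha was at 24.4, 30.9 and 24.8 FPKM in WT and 120.0, 113 and 50.8 FPKM in KO (log2 fold change 1.70 ± 0.28, adjusted p = 0.0208). Hadhb was at 31.8, 39.1 and 29.2 FPKM in WT and 149, 139.6 and 62.7 FPKM in KO (log2 fold change 1.69 ± 0.29, adjusted p = 0.0217). For all 3 genes KO libraries 1 and 2 stood close together and KO library 3 stood between them and WT. Of the carnitine shuttle that admits fatty acids, Cpt2 rose from a mean of 45.9 to 121 FPKM (log2 fold change 1.38 ± 0.20, adjusted p = 0.0148), the carrier Slc25a20 from 12.1 to 42.8 (log2 fold change 1.67 ± 0.26, adjusted p = 0.0186), and Cpt1b, the muscle and brown fat form of the first enzyme, from 0.127 to 1.45 (log2 fold change 1.09 ± 0.18, adjusted p = 0.0215). Cpt1a, the liver form, which the pad expressed at a higher level, did not pass the test (24.6, 26.8 and 39.4 FPKM in WT and 24.8, 24.4 and 27.5 FPKM in KO; log2 fold change -0.21 ± 0.19, adjusted p = 0.622). Ehhadh, a peroxisomal enzyme of the same chemistry, was at 13.3, 14.2 and 9.84 FPKM in WT and 122, 65.98 and 26.8 FPKM in KO (log2 fold change 2.20 ± 0.42, adjusted p = 0.0249). Ppara, the receptor that activates many of these genes, was at 2.47, 1.77 and 1.60 FPKM in WT and 17.1, 12.7 and 4.66 FPKM in KO (log2 fold change 1.94 ± 0.39, adjusted p = 0.0285). Of the 16 calls none held without KO library 1, KO library 2 or WT library 3, and 15 held without KO library 3.

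Other mitochondrial lists moved in part. Of 34 solute carriers of the SLC25 family 9 rose and 1 fell. Slc25a34, a carrier of uncertain cargo, was at 0.213, 0.510 and 0.343 FPKM in WT and 16.2, 8.29 and 2.18 FPKM in KO (log2 fold change 2.56 ± 0.48, adjusted p = 0.0235). Slc25a1, which exports citrate for fatty acid synthesis, was at 73.1, 96.6 and 51.3 FPKM in WT and 189, 246 and 229 FPKM in KO (log2 fold change 1.61 ± 0.29, adjusted p = 0.0226). Slc25a24, which carries ATP-magnesium into the matrix in exchange for phosphate, fell, from 6.54, 8.87 and 11.8 to 3.93, 4.24 and 5.20 FPKM (log2 fold change -0.86 ± 0.20, adjusted p = 0.0461). Of 11 genes of mitochondrial calcium handling, Letm1, an inner-membrane cation exchanger, rose from 7.53, 7.45 and 6.12 to 17.9, 19.3 and 12.2 FPKM (log2 fold change 1.10 ± 0.15, adjusted p = 0.0132), and so did its relative Letmd1 (log2 fold change 1.73 ± 0.37, adjusted p = 0.0323). Of 21 genes of branched-chain amino acid breakdown, all 21 lay above 0 with a median of 0.45, and Mcee, Mccc1 and Bckdhb rose. Of 28 glycolytic genes and HIF1A targets 4 rose, among them Pfkl, the liver phosphofructokinase (12.05, 16.8 and 14.6 FPKM in WT and 52.4, 66.5 and 24.6 FPKM in KO; log2 fold change 1.56 ± 0.31, adjusted p = 0.0272), and 1, Adm, the vasodilator adrenomedullin, fell (log2 fold change -0.97 ± 0.23, adjusted p = 0.0473).

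The largest fold changes of the comparison were in genes of thermogenic adipocytes. Of 22 on the list, 16 rose, none fell, 21 lay above 0, and the median was 1.84. Ucp1 (ENSMUSG00000031710, chr8:83290352-83298452 of mm10, plus strand) was at 27.5, 27.99 and 0.168 FPKM in WT and 651, 699 and 129 FPKM in KO (log2 fold change 5.30 ± 1.11, adjusted p = 0.0311). The KO values span more than 5-fold, WT library 3 was almost without Ucp1, and even so the lowest KO value was more than 4 times the highest WT value. Cidea, a lipid droplet protein of brown and beige fat, was at 15.8, 28.1 and 5.35 FPKM in WT and 437, 351 and 106 FPKM in KO (log2 fold change 4.12 ± 0.61, adjusted p = 0.0169). Elovl3, which lengthens very long fatty acids in brown fat, was at 0.234, 1.06 and 0 FPKM in WT and 86.6, 119 and 13.1 FPKM in KO (log2 fold change 5.28 ± 0.74, adjusted p = 0.0134), the third WT value being listed at 0. In both genes KO libraries 1 and 2 were several times higher than KO library 3, and the KO and WT libraries did not overlap in either.

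**Figure D3:**
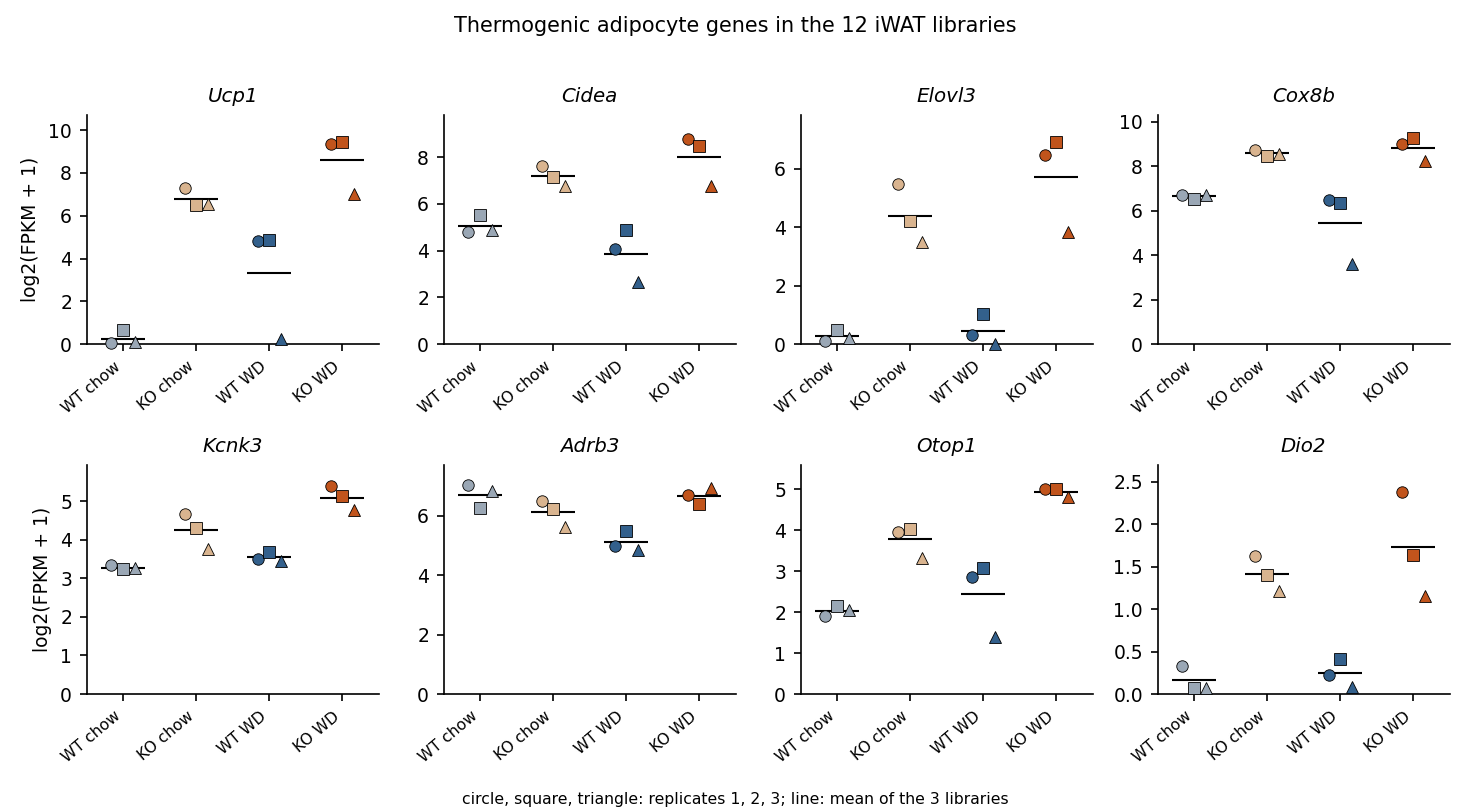
Level of 8 thermogenic adipocyte genes (log2(FPKM + 1), y axis) in the 4 iWAT groups of 3 libraries, with 1 symbol per replicate and a line at each group's mean. In all 8 genes the 3 KO WD libraries lie above the 3 WT WD libraries. For Adrb3 and Cox8b the 3 WT chow libraries also lie above the 3 WT WD libraries.

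Cox8b and Cox7a1 are the forms of complex IV subunits found in brown fat and muscle. Cox8b was at 88.9, 79.3 and 11.1 FPKM in WT and 513, 616 and 300.1 FPKM in KO (log2 fold change 3.37 ± 0.63, adjusted p = 0.0235). Cox7a1 was at 26.2, 11.2 and 2.40 FPKM in WT and 117, 139 and 31.1 FPKM in KO (log2 fold change 2.96 ± 0.72, adjusted p = 0.0497). In both, WT library 3 was the lowest of all 6 and KO library 3 the lowest of the KO libraries. Fabp3, the fatty acid binding protein of heart, muscle and brown fat, had the largest rise of all named genes, 13.6, 10.4 and 0.390 FPKM in WT and 618, 537 and 50.4 FPKM in KO (log2 fold change 5.39 ± 1.03, adjusted p = 0.0246). These genes are also made in muscle. KO library 2, the lowest of the 6 in muscle markers, had the highest Cox8b and Cox7a1 and the second highest Fabp3. WT library 1, the highest in muscle markers, held 88.9, 26.2 and 13.6 FPKM of the 3 genes. The part of muscle RNA in their levels was not tested.

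The other risers of the list span receptors, enzymes and channels. Adrb3, the beta-3 adrenergic receptor of adipocytes, was at 30.9, 44.4 and 27.6 FPKM in WT and 104, 83.7 and 122 FPKM in KO (log2 fold change 1.57 ± 0.28, adjusted p = 0.0226), and the lowest KO value lay well above the highest WT value. Otop1, a proton channel enriched in brown fat, was at 6.30, 7.37 and 1.61 FPKM in WT and 30.8, 31.01 and 26.9 FPKM in KO (log2 fold change 2.49 ± 0.37, adjusted p = 0.0169), with the 3 KO values within 5 FPKM of each other. Gk, glycerol kinase, which lets an adipocyte reuse glycerol, was at 1.47, 1.70 and 1.33 FPKM in WT and 21.7, 18.5 and 4.96 FPKM in KO (log2 fold change 2.47 ± 0.41, adjusted p = 0.0208). KO library 3 was the lowest of the KO libraries for Gk and still above every WT library. Kcnk3, a potassium channel of brown adipocytes, was at 10.4, 11.8 and 9.91 FPKM in WT and 41.2, 33.9 and 26.2 FPKM in KO (log2 fold change 1.55 ± 0.22, adjusted p = 0.0131). Dio2, which activates thyroid hormone, was at 0.173, 0.332 and 0.0631 FPKM in WT and 4.23, 2.12 and 1.23 FPKM in KO (log2 fold change 1.49 ± 0.26, adjusted p = 0.0226). Pank1, Slc27a2 and S100b also rose, by 2.14, 2.10 and 1.55. Among those not called was Acot2, a mitochondrial thioesterase, at 9.90, 9.46 and 9.79 FPKM in WT and 98.97, 88.3 and 13.8 FPKM in KO, where KO library 3 stood near the WT libraries (log2 fold change 2.25 ± 0.60, adjusted p = 0.0695). Prdm16 and Ebf2, regulators of the brown and beige lineage, had log2 fold changes of 0.29 and 0.23 (adjusted p = 0.553 and 0.674). By limma none of 10 genes of creatine and calcium cycling, heat-producing routes without Ucp1, was called or had an unadjusted p under 0.05. Neither edgeR nor DESeq2 called any. Their mean log2 level was 3.53, 2.77 and 2.44 in WT and 3.28, 2.01 and 2.28 in KO. Library 1 of each genotype was the highest, as for muscle markers, and the part of muscle RNA was not tested. Of the 16 calls of the thermogenic list, 10 held without WT library 1 and 10 without WT library 2, 2 without WT library 3, none without KO library 1 or KO library 2, and 15 without KO library 3.

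Genes of fatty acid synthesis were higher as well. Of 22, 9 rose, none fell, and the median was 1.20. Elovl6 (ENSMUSG00000041220, chr3:129532355-129638495 of mm10, plus strand), which lengthens palmitate, was at 2.82, 3.99 and 2.10 FPKM in WT and 40.9, 67.5 and 31.7 FPKM in KO (log2 fold change 3.55 ± 0.34, adjusted p = 0.00397), a 15.7-fold difference of the means. Acaca, acetyl-CoA carboxylase 1, the committing step, was at 15.1, 16.7 and 11.4 FPKM in WT and 46.3, 59.8 and 49.8 FPKM in KO (log2 fold change 1.79 ± 0.20, adjusted p = 0.00497). Fasn, the fatty acid synthase, was at 179, 267 and 79.2 FPKM in WT and 585, 682 and 720.3 FPKM in KO (log2 fold change 2.07 ± 0.37, adjusted p = 0.0226). KO library 3 was the highest of its group for Fasn and the lowest for Elovl6, so the 3 KO libraries did not keep 1 order over this pathway. Acly and Acss2, which supply acetyl-CoA, had means that went from 42.7 to 159.7 (adjusted p = 0.0226) and from 6.07 to 28.2 FPKM (adjusted p = 0.0217), and Me1 and Tkt, which supply NADPH or its precursors, went from 77.2 to 232 (adjusted p = 0.00928) and from 47.3 to 121 (adjusted p = 0.0175). Not called were Acacb, the carboxylase isoform at the mitochondrion (log2 fold change 1.84 ± 0.46, adjusted p = 0.0529), and Srebf1, the gene of the activator SREBP-1 (log2 fold change 0.53 ± 0.25, adjusted p = 0.293). Elovl6 and Acaca were called in each fit without 1 library.

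For Fasn and Elovl6 the mean WT chow level lay between the means of the WD groups. Fasn was at 683, 666 and 502 FPKM in WT chow and 1195, 970.1 and 782 in KO chow. Elovl6 was at 19.97, 19.2 and 27.7 FPKM in WT chow and 101, 58.8 and 43.6 in KO chow. The WT WD libraries were the lowest of the 4 groups in both genes, without overlap with KO WD or either chow group. The effect of diet within a genotype was not tested.

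Of 25 genes of triglyceride synthesis and lipolysis 6 rose, Gk and Adrb3 among them. Agpat2, which adds the second fatty acid to glycerol, was at 184, 196 and 98.6 FPKM in WT and 466, 469.8 and 418 FPKM in KO (log2 fold change 1.55 ± 0.26, adjusted p = 0.0217). Gpd1, which makes glycerol 3-phosphate, went from a mean of 265 to 609 FPKM (log2 fold change 1.19 ± 0.26, adjusted p = 0.0335), and Dgat1, which closes the triglyceride, from 45.3 to 70.5 (log2 fold change 0.62 ± 0.11, adjusted p = 0.0215). Pnpla2, the adipose triglyceride lipase, was at 424, 459 and 495 FPKM in WT and 742, 696 and 651 FPKM in KO and missed the threshold (log2 fold change 0.60 ± 0.16, adjusted p = 0.0691). Its groups did not overlap, with KO higher, as for 12.7% of all tested genes. Of 13 lipid droplet proteins, Plin5, which ties droplets to mitochondria, rose beside Cidea, from 8.55, 14.4 and 6.11 to 59.8, 56.5 and 34.03 FPKM (log2 fold change 2.29 ± 0.31, adjusted p = 0.0131). Of 18 genes of fatty acid uptake Fabp3, Slc27a2, Acsl1 and Fabp5 rose. Of 20 genes of cholesterol synthesis and uptake 1, Nsdhl, rose (log2 fold change 1.04 ± 0.24, adjusted p = 0.0450).

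General adipocyte genes differed less. Of 24 identity genes, 3 rose (Adrb3, Gpd1 and Acsl1), and the median was 0.18. Adipoq, the adipokine adiponectin, was at 1141, 1197 and 1148 FPKM in WT and 892, 866 and 1216 FPKM in KO (log2 fold change -0.25 ± 0.24, adjusted p = 0.637), and its groups overlapped. By limma none of 20 adipokines was called, 5 had an unadjusted p under 0.05, edgeR called none and DESeq2 called 4, all lower in KO. Lep, leptin, was at 343, 686 and 682 FPKM in WT and 132, 137 and 339.6 FPKM in KO (log2 fold change -1.56 ± 0.52, adjusted p = 0.131), so that the highest KO library stood just under the lowest WT library. Sfrp5, a secreted WNT inhibitor that rises with adipocyte growth, was at 76.1, 104 and 203 FPKM in WT and 9.66, 13.7 and 44.3 FPKM in KO (log2 fold change -2.62 ± 0.79, adjusted p = 0.101). Both missed the threshold. Their groups did not overlap, with KO lower, as for 12.3% of all tested genes.

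A joint list of adipocyte expansion genes and imprinted growth genes was mostly lower in KO. Of 16 on the list, 15 lay below 0, the median was -0.83, 2 fell and 1 rose. In 9 every KO library lay below every WT library, against 12.3% of all tested genes. Others stood near 0 with overlapping groups, such as H19 at -0.03 and Trp53inp2 at -0.20. Oxtr (ENSMUSG00000049112, chr6:112473683-112489943 of mm10, minus strand), the oxytocin receptor, was at 10.9, 19.6 and 20.9 FPKM in WT and 1.93, 3.53 and 5.003 FPKM in KO (log2 fold change -2.02 ± 0.35, adjusted p = 0.0223). Peg3, an imprinted zinc-finger gene, was at 21.9, 25.04 and 41.4 FPKM in WT and 11.4, 4.12 and 5.36 FPKM in KO (log2 fold change -1.99 ± 0.39, adjusted p = 0.0272). In both genes the lowest WT value was about 2 times the highest KO value. The riser was Kcnk2, a potassium channel, from 1.39, 1.23 and 1.21 to 2.68, 5.29 and 3.51 FPKM (log2 fold change 1.05 ± 0.16, adjusted p = 0.0179). Mest, an imprinted gene linked to fat mass expansion, was at 132, 116 and 120.3 FPKM in WT and 24.7, 32.3 and 94.9 FPKM in KO, with KO library 3 near the WT libraries (log2 fold change -1.51 ± 1.02, adjusted p = 0.478). Nnat, another imprinted gene, was at 844, 667 and 759 FPKM in WT and 299, 214 and 401 FPKM in KO (log2 fold change -1.35 ± 0.37, adjusted p = 0.0715). DESeq2 called 8 of the list lower. On chow Oxtr was at 2.08, 2.10 and 1.43 FPKM in WT and 2.72, 3.34 and 0.995 in KO, close to the KO WD level. Its fold change on WD less that on chow was -2.18 ± 0.49 (adjusted p = 0.573), which missed the adjusted threshold.

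**Figure D4:**
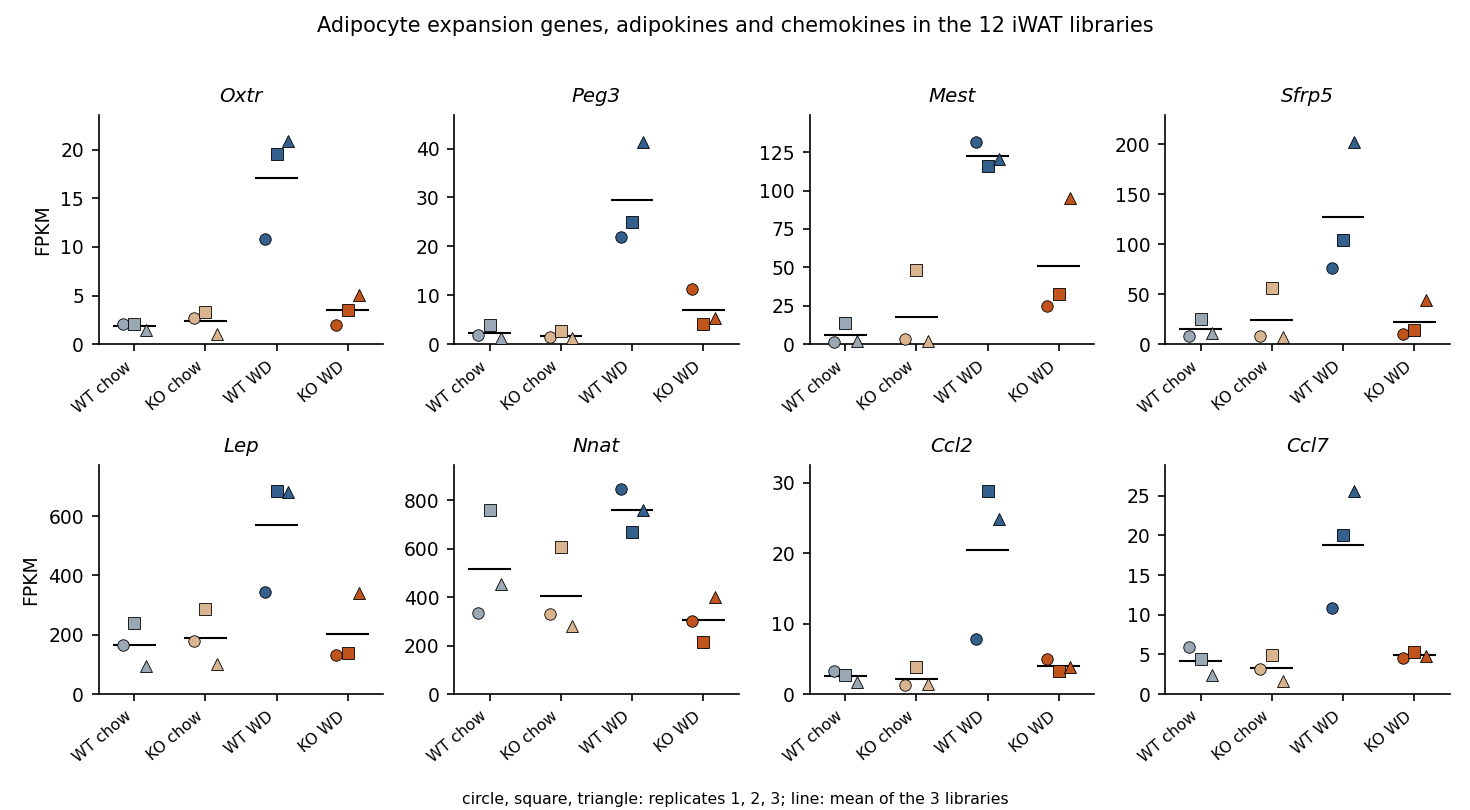
Level of 8 genes (FPKM, y axis) in the 4 iWAT groups of 3 libraries, with 1 symbol per replicate and a line at each group's mean. They are adipocyte expansion genes, imprinted growth genes, adipokines and chemokines. In all 8 genes every KO WD library lies below every WT WD library, as in 12.3% of all tested genes. The call at an adjusted p under 0.05 was reached by Oxtr, Peg3, Ccl2 and Ccl7.

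Inflammatory genes leaned lower, with few calls. Of 29 inflammatory genes and chemokines 2 fell, 24 lay below 0 and the median was -0.40. Ccl2, the main chemokine that draws monocytes, was at 7.88, 28.8 and 24.8 FPKM in WT and 4.92, 3.21 and 3.80 FPKM in KO (log2 fold change -1.94 ± 0.44, adjusted p = 0.0398). Its neighbour Ccl7 was at 10.8, 20.1 and 25.6 FPKM in WT and 4.53, 5.36 and 4.80 FPKM in KO (log2 fold change -1.67 ± 0.37, adjusted p = 0.0363). WT library 1 was the lowest of the WT libraries for both and still above all KO libraries. Both calls were lost without WT library 2, WT library 3 or any 1 KO library, and both held without WT library 1. By limma none of 23 macrophage markers was called, 5 had an unadjusted p under 0.05, edgeR called none and DESeq2 called 1, lower. Their mean log2 level was 4.17, 4.31 and 4.98 in WT and 4.16, 4.23 and 3.91 in KO, with the WT library 3 apart from the other 5. Adgre1, which encodes the macrophage marker F4/80, was at 12.6, 17.5 and 33.9 FPKM in WT and 13.1, 10.4 and 10.5 FPKM in KO (log2 fold change -0.75 ± 0.37, adjusted p = 0.319). Cd68 was at 31.1, 56.7 and 103 FPKM in WT and 38.2, 34.5 and 26.5 FPKM in KO (log2 fold change -0.78 ± 0.38, adjusted p = 0.311). Trem2, a receptor of lipid-associated macrophages, had a log2 fold change of -1.01 (adjusted p = 0.264), and of the 17 genes of those cells Fabp5, which adipocytes also express, was the 1 called, higher.

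By limma no gene was called among 25 interferon targets, 16 antigen presentation genes, 22 lymphocyte markers and 6 mast cell markers. Their counts at an unadjusted p under 0.05 were 3, 1, 1 and 0, edgeR called none, and DESeq2 called 2 interferon targets. Of the interferon targets 24 lay above 0, with a median of 0.47 on WD and -0.35 on chow, and 10 had an unadjusted interaction p under 0.05, none of them past the adjusted threshold. Lymphocyte markers were highest in KO library 2, as given above. So were 5 lymph node markers, at a mean log2 level of 2.11, 0.86 and 1.53 in WT and 1.77, 3.43 and 0.99 in KO. The part of lymphocyte and lymph node RNA in these values was not tested.

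Matrix genes leaned lower, but not in every library. Of 19 collagens none was called, 16 lay below 0 and the median was -0.32. At an unadjusted p under 0.05 there was 1, edgeR called none and DESeq2 1, lower. Mean log2 levels of the collagens were 4.19, 4.70 and 4.79 in WT and 4.11, 3.67 and 4.83 in KO, with KO library 3 the highest. Those of the other matrix genes were 3.87, 4.11 and 4.48 in WT and 3.62, 3.41 and 4.05 in KO, and these groups overlapped as well. Of 30 other matrix genes 1 fell, Thbs2, thrombospondin 2, from 18.1, 20.8 and 33.3 to 8.04, 8.25 and 9.18 FPKM (log2 fold change -1.36 ± 0.28, adjusted p = 0.0303). Timp1, an inhibitor of matrix proteases, was at 0.887, 5.59 and 11.4 FPKM in WT and 1.29, 1.70 and 1.23 FPKM in KO (log2 fold change -1.16 ± 0.56, adjusted p = 0.307). Of 20 markers of fibroblasts and progenitors and 18 of endothelium, limma called none, with 1 and 0 at an unadjusted p under 0.05. Their medians were -0.01 and -0.13, edgeR called none, and DESeq2 called 1 fibroblast marker. Of 16 cell cycle genes all 16 lay below 0, with a median of -0.43. None was called by limma or edgeR, 4 had an unadjusted p under 0.05, and DESeq2 called 1. Mean log2 levels of the cell cycle genes were 1.42, 1.89 and 2.27 in WT and 1.44, 1.56 and 1.29 in KO. WT library 1 thus lay below KO libraries 1 and 2.

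Some markers of cells other than adipocytes moved with genotype. The mean of the red blood cell genes separated KO from WT in all libraries, as given above, whereas muscle markers moved with genotype in some. Of 19 skeletal muscle genes 17 lay below 0, with a median of -1.93, and none was called by limma, edgeR or DESeq2 or had an unadjusted p under 0.05; library 1 of both genotypes was high. Acta1, skeletal actin, was at 828, 77.5 and 44.2 FPKM in WT and 383, 3.97 and 9.68 FPKM in KO (log2 fold change -2.39 ± 1.66, adjusted p = 0.493). Of 5 red blood cell genes all 5 lay below 0 and had an unadjusted p under 0.05, and Alas2, which starts heme synthesis in red cell precursors, fell, from 59.1, 34.7 and 21.7 to 7.25, 6.76 and 15.2 FPKM (log2 fold change -1.85 ± 0.43, adjusted p = 0.0447). edgeR called 1 of the 5 lower, and DESeq2 called all 5 lower. The near-identical alpha globin genes Hba-a1 and Hba-a2 may share reads. The part of blood, muscle and adipocyte content in the other results was not tested. As measured, the thermogenic list mean was 2.42, 2.50 and 1.67 in WT and 4.72, 4.51 and 3.55 in KO, without overlap.

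**Figure D5:**
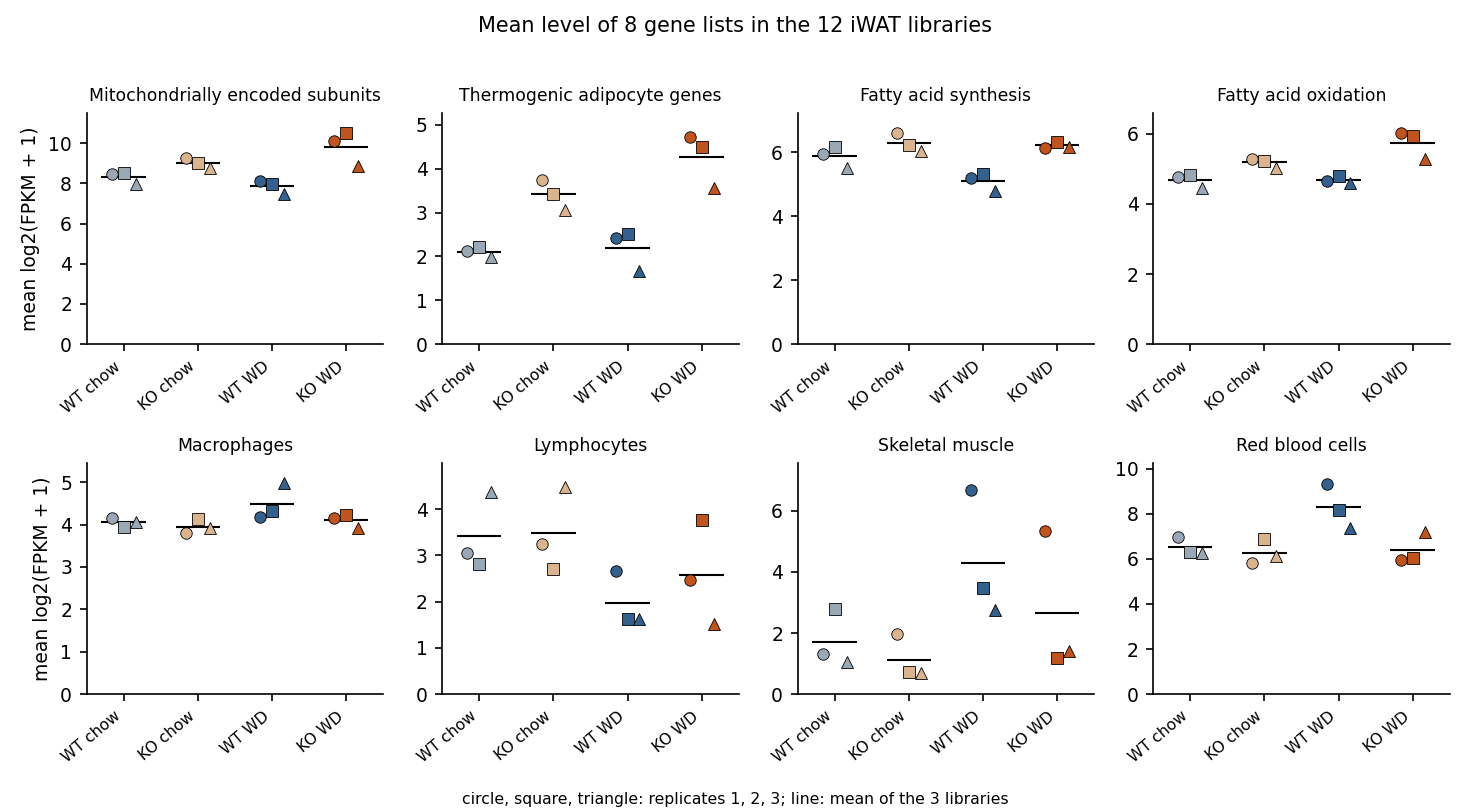
Mean log2(FPKM + 1) over the members of 8 gene lists (y axis) in the 4 iWAT groups of 3 libraries, with 1 symbol per replicate and a line at each group's mean. The mitochondrially encoded, thermogenic, fatty acid synthesis and oxidation lists separate KO WD from WT WD in all 3 libraries, with KO higher. The red blood cell list separates them too, with KO lower. Among the WD libraries, lymphocyte markers are highest in KO library 2 and muscle markers in library 1 of each genotype. For muscle markers, WT WD libraries 2 and 3 lie above KO WD libraries 2 and 3.

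Among the 15 largest falls most belonged to no list. Mycbp2, a ubiquitin ligase best known in neurons (ENSMUSG00000033004, chr14:103113411-103346814 of mm10, minus strand), had the smallest p of all genes, at 27.1, 30.3 and 38.4 FPKM in WT and 8.39, 8.80 and 8.42 FPKM in KO (log2 fold change -1.77 ± 0.14, adjusted p = 0.00200). Its groups were narrow and far apart, and on chow its FPKM was 11.5, 9.05 and 8.28 for WT mice and 8.99, 10.2 and 8.77 for KO mice, so the WT WD libraries stood alone. Its interaction, -1.74 ± 0.20, had the smallest adjusted p of all genes, 0.0610, and missed the threshold. Mup-ps21, a pseudogene of the major urinary protein family whose copies may share reads, was at 8.40, 10.4 and 13.2 FPKM in WT and 0.232, 0.109 and 2.34 FPKM in KO (log2 fold change -2.79 ± 0.38, adjusted p = 0.0131). Synpo2, an actin-binding protein, was at 29.3, 32.7 and 38.5 FPKM in WT and 8.51, 8.16 and 9.19 FPKM in KO (log2 fold change -1.84 ± 0.37, adjusted p = 0.0288). Abat, which breaks down the transmitter GABA, was at 7.40, 5.43 and 8.70 FPKM in WT and 1.17, 1.10 and 2.03 FPKM in KO (log2 fold change -1.75 ± 0.24, adjusted p = 0.0131).

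Mrc2, a collagen uptake receptor, was at 18.9, 24.7 and 27.5 FPKM in WT and 4.37, 4.33 and 11.4 FPKM in KO (log2 fold change -1.79 ± 0.36, adjusted p = 0.0285). Map1a, a microtubule protein, was at 7.99, 5.22 and 8.40 FPKM in WT and 0.729, 0.758 and 1.92 FPKM in KO (log2 fold change -1.96 ± 0.36, adjusted p = 0.0230). In these 2 genes, as in Abat, KO library 3 was the highest of the KO libraries. Klf14, an imprinted transcription factor linked to fat distribution, was at 5.05, 5.72 and 4.62 FPKM in WT and 0.390, 0.686 and 1.66 FPKM in KO (log2 fold change -1.73 ± 0.41, adjusted p = 0.0479). Folh1, a glutamate-releasing peptidase, was at 11.7, 5.62 and 4.73 FPKM in WT and 0.436, 0.562 and 1.55 FPKM in KO (log2 fold change -2.13 ± 0.49, adjusted p = 0.0439). For both genes the KO libraries lay below the WT libraries. Slc5a7, the choline transporter of nerve endings, was at 3.14, 5.81 and 7.63 FPKM in WT and 0.129, 0.579 and 2.25 FPKM in KO (log2 fold change -1.80 ± 0.36, adjusted p = 0.0285). Fmr1, an RNA-binding protein, was at 32.4, 45.5 and 58.1 FPKM in WT and 8.41, 7.76 and 21.4 FPKM in KO (log2 fold change -1.88 ± 0.39, adjusted p = 0.0300). None of these genes had KO and WT libraries that overlapped, as the naming rule required.

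Of the 15 largest rises, 3 outside the lists remain. Cyp2e1, a cytochrome P450 that oxidises small molecules and ketones, was at 13.3, 70.3 and 32.8 FPKM in WT and 282, 203 and 192 FPKM in KO (log2 fold change 2.78 ± 0.46, adjusted p = 0.0209). On chow it was far higher in both genotypes, 867 ± 133 FPKM in WT and 682 ± 91.9 in KO (mean ± SD, n = 3), and its interaction was 3.12 ± 0.65 (adjusted p = 0.573). Gys2, the liver form of glycogen synthase, was at 5.83, 7.75 and 2.16 FPKM in WT and 24.3, 37.4 and 32.7 FPKM in KO (log2 fold change 2.48 ± 0.37, adjusted p = 0.0169). Acot11, an acyl-CoA thioesterase induced in brown fat by cold, was at 0.693, 0.957 and 0.537 FPKM in WT and 12.03, 23.5 and 3.34 FPKM in KO (log2 fold change 2.70 ± 0.55, adjusted p = 0.0291). KO library 3 was again the lowest of the KO libraries for Acot11, and it was not for Gys2.

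By limma none of 16 integrated stress response genes was called or had an unadjusted p under 0.05, and edgeR and DESeq2 called none. Of 11 genes of endoplasmic reticulum stress 1, Dnajb9, rose (log2 fold change 0.52 ± 0.10, adjusted p = 0.0253). Of 21 antioxidant genes the mitochondrial peroxidase Prdx3 and the mitochondrial thioredoxin reductase Txnrd2 rose (log2 fold change 0.89 ± 0.20, adjusted p = 0.0387 and log2 fold change 0.86 ± 0.15, adjusted p = 0.0226), edgeR called 5 higher, and 8 had an unadjusted p under 0.05 by limma. None of 18 circadian clock genes was called or had an unadjusted p under 0.05 by limma, and edgeR and DESeq2 called none.

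The same knockout contrast on chow, which shares no library with the contrast on WD, gave 0 genes at an adjusted p under 0.05 by limma, with 830 at an unadjusted p under 0.05. The test of the difference between the diets also called 0 by limma, with 1011 at an unadjusted p under 0.05. edgeR called 0 and DESeq2 46. In the lists that follow, medians on chow had the same sign as on WD and were smaller. They were 0.64 for mitochondrially encoded subunits, 0.41 for complex I, 0.45 for complexes II to V, 0.56 for the TCA cycle, 0.46 for fatty acid oxidation, 0.92 for thermogenic genes and 0.45 for fatty acid synthesis. Ucp1 was at 0.0270, 0.568 and 0.0710 FPKM in WT chow and 158, 89.8 and 92.6 in KO chow, and its interaction was -1.22 ± 1.57 (adjusted p = 0.921). Adrb3 ran the other way on chow, with means of 107 ± 28.02 FPKM in WT and 71.1 ± 20.99 in KO, and its interaction, 2.17 ± 0.40, did not pass the adjusted threshold (adjusted p = 0.454). No difference between the diets in the response to the knockout was established for any single gene by the main test.

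In the authors' deposited table of this comparison, which lists 3117 genes, 621 of the 624 genes called here were present, all 621 in the same direction, and 575 had an adjusted p under 0.05 there. That table holds the counts of the same 6 libraries, so it is no independent test.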

How the data were processed

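The authors deposited a table of FPKM values per gene for all libraries, and tables of their own comparisons with read counts, log2 fold changes and p-values, per the file headers. HISAT2 2.0.5, DESeq2 1.20.0 and mm10 are named in the submitters' processing notes. No read counter or strand setting is given in the sources used here, so overlapping and antisense genes cannot be separated.

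Here log2(FPKM + 1) of the 14685 genes with a mean of at least 0.5 FPKM over 12 iWAT libraries was fitted with limma 3.58.1 (trend and robust prior, R 4.3.3), with the 4 iWAT groups in 1 model, and p-values were adjusted by Benjamini-Hochberg. Fold changes on this scale understate changes of low genes. Deposited FPKM values gave whole reads for 100% of 285923 values (tolerance 0.01), and all 18702 deposited counts compared were equal to them. Those reads were tested with edgeR 4.0.16, which called 699 genes, and DESeq2 1.42.0 as alternatives. Scripts were tested on simulated data. Of the columns of per-library values 14 were not used, and 27 gene symbols had been turned into dates. Gene lists are described by counts and medians, with no test. The members and the 52 lists were chosen with earlier results of these data known. Named are Mrs2, the 15 largest rises and falls among called genes of at least 3 FPKM in the higher group, without overlap of libraries and with a gene name, and in each list up to 6 members of smallest p and others whose level bears on it. Some genes that the rule names are not reported here. Equal replicate numbers were not used to pair mice.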

Additional observations from a re-analysis of the deposited data

How the results depend on the processing

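Against 624 called genes, testing all genes without a filter on low values called 204, a fit of the 6 WD libraries alone 16, library weights 1514, DESeq2 on the recovered reads 1454, and the fit without both libraries high in muscle genes 4. Leaving out 1 library gave between 16 and 871. In all 19 alternatives the called genes that were tested kept their direction, 412 of them with a mean of at least 5 FPKM and all 624 in the others. They also kept an unadjusted p under 0.05, except 2 in DESeq2. Direction was fixed in advance where libraries were left out or the pseudocount changed, because KO and WT libraries of these genes do not overlap. Distinct list members called, 186, became 56, 2, 315, 327 and 0 under the same 5 alternatives, and between 5 and 239 without 1 library. Scaling over nuclear reads moved the share of calls that were higher from 75.3% to 60.9%, library weights to 58.7%. The interaction, 0 genes, became 1 with a mean of at least 5 FPKM, 1 with median-of-ratios scaling, 1 with scaling over nuclear reads, 2 with library weights, 46 in DESeq2 and between 0 and 8 without 1 library. Mrs2, too low for the filter at 5 FPKM, kept its direction in the other alternatives. Its log2 fold change of -0.88 lost its call without the filter on low values (-0.88, adjusted p = 0.0523), with the 6 WD libraries alone (-0.88, adjusted p = 0.120) and without both libraries high in muscle genes (-0.81, adjusted p = 0.139), and it ran between -1.10 and -0.75 without 1 library. The mitochondrial share taken over summed FPKM differed by 12.9 percentage points (8.23% in WT and 21.2% in KO). No scaling moved the median of all genes by more than 0.1. Residuals of KO and WT libraries of equal replicate number correlated at 0.176, -0.244 and 0.203, and not all were over 0.1, so the numbers were not taken as pairs. A replicate block called 809 genes, 553 higher and 256 lower, with 0 in the interaction and Mrs2 at -0.88, and neither KO library 2 nor KO library 3 correlated best with its own number. The depth of 15358324 to 20354594 reads leaves genes near 0.5 FPKM with few counts.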

Other observations

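Several gene families outside the lists were looked at after their values had been seen, and are given as values only. Of 13 genes of coenzyme Q synthesis, which makes the electron carrier between complexes I and II and complex III, 5 were called higher (Coq9, Coq10a, Coq3, Coq6 and Coq7), none lower, and the median log2 fold change was 0.56. Coq9, which hands the ring intermediate to Coq7, was at 27.5, 27.04 and 19.2 FPKM in WT and 57.7, 58.2 and 37.2 FPKM in KO (log2 fold change 1.01 ± 0.20, adjusted p = 0.0259). Of 16 genes of peroxisome assembly 5 were called higher (Pex16, Pex6, Pex13, Pex3 and Pex14), with a median of 0.35. Of 22 genes of glycogen metabolism 5 were called higher (Gys2, Pygl, Gbe1, Gyg and Gys1), and the median was 0.15. Pygl, the liver form of glycogen phosphorylase, was at 15.6, 12.8 and 12.5 FPKM in WT and 35.96, 35.2 and 26.00 FPKM in KO (log2 fold change 1.18 ± 0.18, adjusted p = 0.0169). Gbe1, the branching enzyme, was at 11.00, 11.7 and 8.12 FPKM in WT and 19.9, 26.04 and 17.97 FPKM in KO (log2 fold change 0.98 ± 0.20, adjusted p = 0.0285). All KO values of these 3 named genes lay above all WT values. Of 8 genes of coenzyme A synthesis 3 were called higher (Pank1, Coasy and Ppcs). Of 19 tested tRNAs and rRNAs of the mitochondrial genome 10 were called higher, with a median of 1.73. Poly(A) selection captures these RNAs unevenly, so their levels are uncertain.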
